A study of Mus musculus with 18 samples.

Results

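The report describes 10 genes that are widely used as markers of macrophages and other antigen-presenting cells (Ptprc, Csf1r, C1qa, C1qb, C1qc, Cd74, H2-Aa, Lyz2, Cd68 and Gpnmb), in mouse kidney proximal tubules and in the cells that grew from them in culture. They were chosen by name, and each of the 10 was found among the 55421 genes measured. All 10 were also among the 18754 genes with enough counts to be tested. RNA was sequenced after polyA selection in 18 libraries, 3 (replicates A, B and C) on day 0, the day of isolation, and on each of days 1, 2, 4, 7 and 14 of culture. The tubules came from kidneys of wild-type C57BL/6 mice (C57BL/6J in the growth protocol), all female and aged 6 weeks. Kidneys were digested with collagenase, tubules were enriched by a Percoll gradient and then seeded on tissue culture plastic, and the cells were kept there without passage and without further treatment. A preparation of this kind is an enrichment, with no sort that would remove leukocytes, and each library is a bulk sample. In bulk RNA, fewer cells of a type and less RNA per cell cannot be told apart.

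Macrophages are resident in the kidney interstitium, between the tubules, and are known there for taking up debris and presenting antigen. Ptprc encodes CD45, a phosphatase on the surface of nearly all leukocytes, Csf1r is the receptor that macrophages need for survival, and C1qa, C1qb and C1qc encode the 3 chains of C1q, the recognition molecule of the classical complement pathway. Antigen is presented on major histocompatibility complex (MHC) class II molecules, of which H2-Aa encodes an alpha chain and Cd74 the invariant chain, their chaperone. Lyz2 encodes lysozyme M, Cd68 a lysosomal membrane glycoprotein and Gpnmb a transmembrane glycoprotein of lysosomes, and of these Cd68 and Gpnmb are also known outside macrophages, where lysosomes are under load.

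The unit of level is CPM (counts-per-million), or TPM (transcripts-per-million) where genes are compared with each other, since TPM corrects for transcript length. Total estimated counts per library ranged between 23799559 and 37579097. The summed level of 8 proximal tubule markers was 15.1 to 24.96 CPM on day 14, against 26147 to 30035 CPM on day 0. Replicate C of day 7 stood apart from A and B, with a mean correlation across genes of 0.975 with the day 4 libraries (0.952 for A and 0.953 for B), and results of day 7 that move without it are given both ways. Replicates are labelled biological, with no word on separate animals or cultures, so that p-values cover the spread among these libraries only, and that spread may be technical. Genes called are those under 0.05 in edgeR's quasi-likelihood test after Benjamini-Hochberg (BH) adjustment over all genes tested.

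The 10 genes did not move together. H2-Aa, Cd74 and the 3 C1q genes were lower on each culture day than on day 0. Ptprc and Csf1r were at their lowest between days 1 and 4 and had day 0 levels or above again on day 14. Cd68 and Gpnmb were higher than on day 0 on each culture day, and Lyz2 followed neither course. On day 1 against day 0, 7 of the 10 genes fell and 2 rose, where 37.1% of all genes tested fell and 33.1% rose. On day 2, again 7 fell and 2 rose (35.3% and 38.9% of all genes), as on day 4 (36.8% and 38.1%). On days 7 and 14, 5 fell and 2 rose, where 32.1% of all genes fell on each of these days and 37.6% rose on day 7 and 37.4% on day 14. Without replicate C of day 7, 6 fell and 3 rose on each of these days. The calls over all genes in that fit were not counted, so these numbers stand without a background. The median log2 fold change of the 10 genes on day 14 against day 0 was -2.93, beside 0.16 for all genes tested. The scaling moves the background, since 10373 genes rose and 4047 fell on day 14 against day 0 with library sizes alone, against 7007 and 6026 with TMM scaling.

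**Figure D1:**
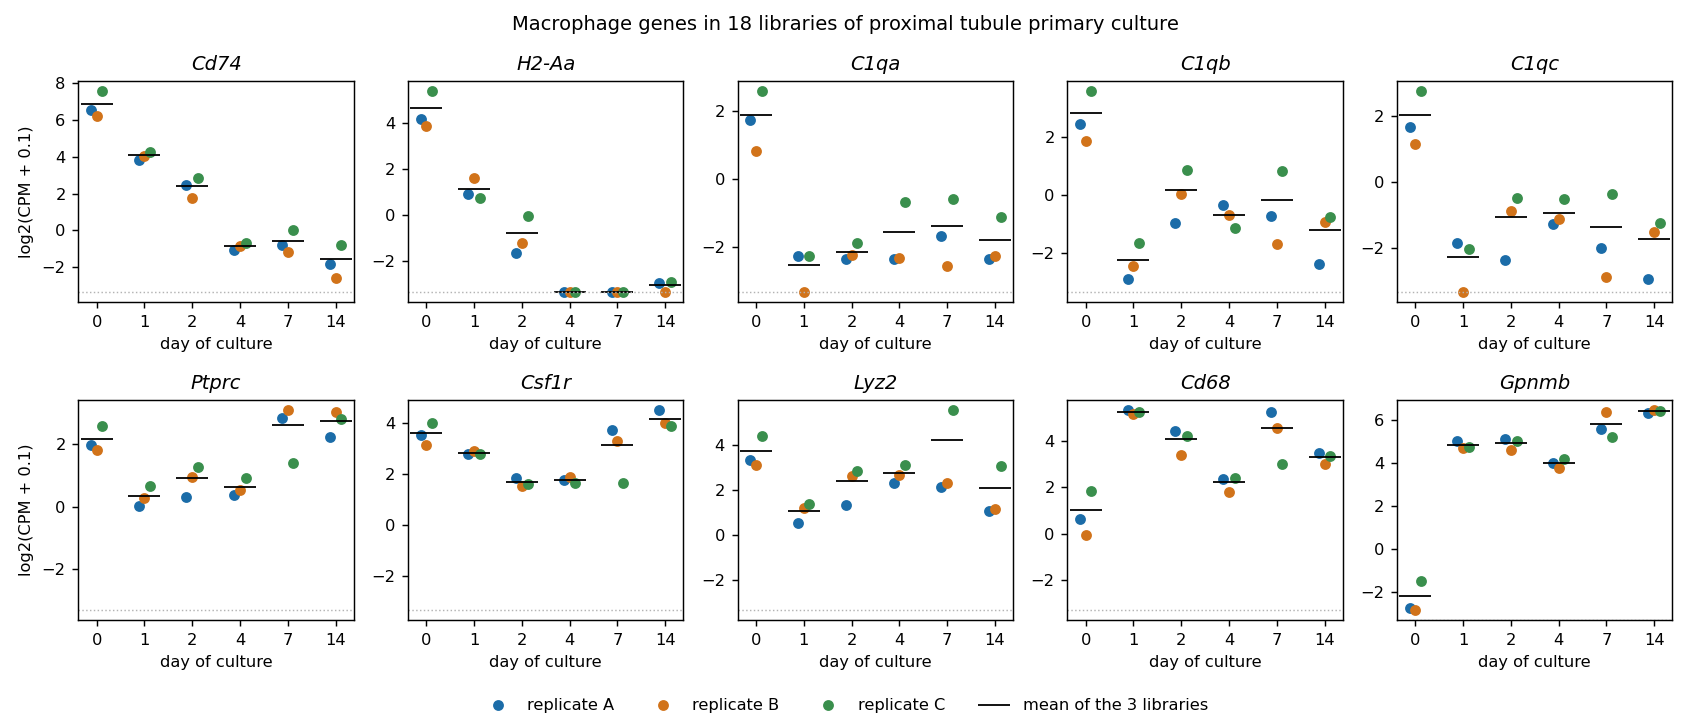
Level of each of the 10 genes, as log2(CPM + 0.1), in each library by day of culture, with a bar at the mean of the 3 libraries and a dotted line at 0 counts. Cd74 and H2-Aa step down to day 4, Ptprc and Csf1r dip and return, and Gpnmb ends at 81.5 to 91.1 CPM on day 14.

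**Figure D2:**
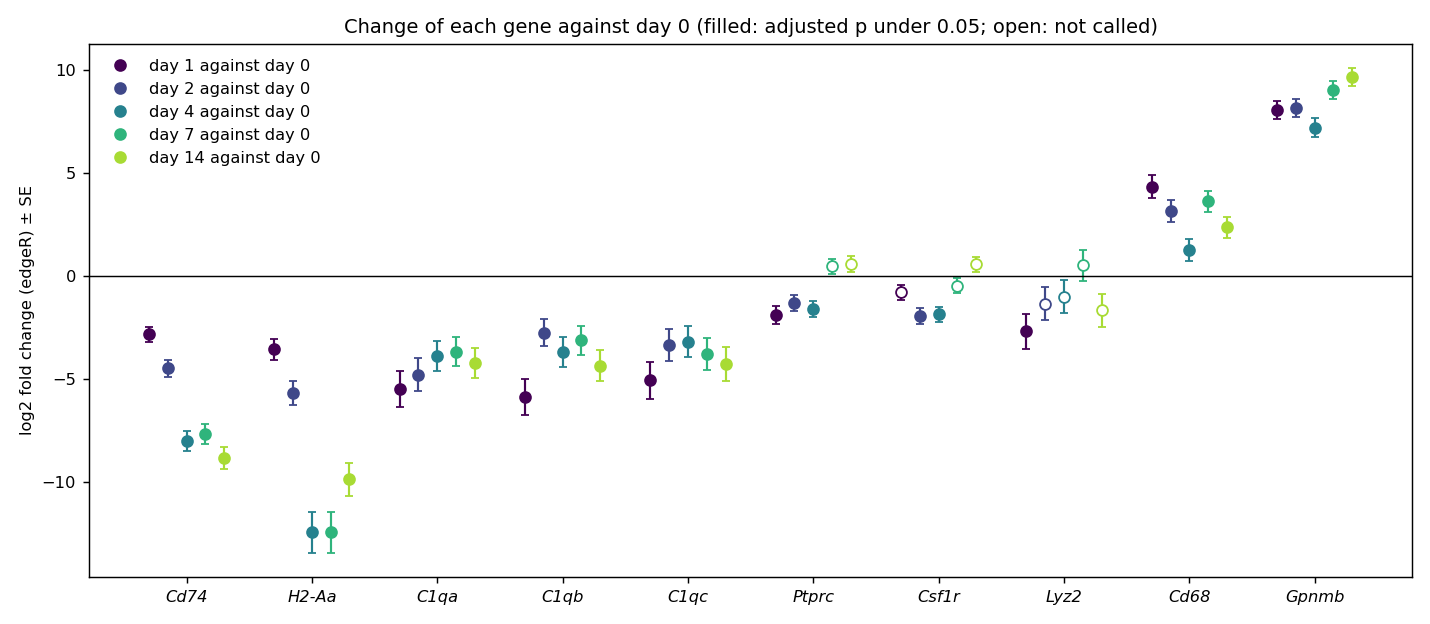
Log2 fold change against day 0 with its standard error (edgeR) for each gene and culture day, filled where the adjusted p was under 0.05. H2-Aa had no count on days 4 and 7, so its points there depend on the prior count of the fit and are no measure of size.

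The MHC class II genes fell in steps over the first 4 days. Cd74 (ENSMUSG00000024610, chromosome 18, 60803848 to 60812652, plus strand in GRCm38) had 91.6, 72.9 and 187 CPM in replicates A, B and C of day 0. It had 14.0, 16.5 and 19.2 CPM on day 1, 5.35, 3.32 and 7.01 CPM on day 2, and 0.380, 0.455 and 0.528 CPM on day 4. On day 14 Cd74 was at 0.186, 0.0712 and 0.489 CPM, which rests on 6, 2 and 15 counts. Each step down to day 4 left no overlap between the libraries of neighbouring days. The log2 fold change of Cd74 was -2.82±0.36 (SE) on day 1 against day 0, -1.66±0.36 on day 2 against day 1 and -3.52±0.48 on day 4 against day 2 (adjusted p = 3.98e-06, 0.00224 and 2.97e-05, edgeR, BH). It was -8.83±0.53 on day 14 against day 0 (adjusted p = 4.32e-10).

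H2-Aa (ENSMUSG00000036594, chromosome 17, 34282744 to 34287823, minus strand) went the same way and further. Its levels were 17.9, 14.3 and 41.4 CPM on day 0, 1.77, 2.95 and 1.56 CPM on day 1 and 0.223, 0.336 and 0.876 CPM on day 2. No count of H2-Aa was found in any library of days 4 and 7, and day 14 held 1, 0 and 1 counts. With a floor of 3 counts over the 3 libraries, H2-Aa was at least 701-fold lower on day 4 than on day 0 and at least 681-fold lower on day 7. The 2 counts of day 14, against 1584 on day 0, put it 1053-fold lower (exact 95% interval 291 to 8706, counting error only). The day 4 libraries also lay at least 14.5-fold under those of day 2 (adjusted p = 0.00275, edgeR, BH, and 0.0857 in limma on log2(TPM + 1) without filter).

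Cd74 and H2-Aa kept a close ratio within the day 0 libraries, where Cd74 had 3.91 to 4.45 times the TPM of H2-Aa. On day 1 the ratio was 4.93 to 10.9 and on day 2 it was 6.94 to 21.3, so that H2-Aa was the scarcer of the pair by more than at isolation. Across the 18 libraries these genes had a mean absolute difference of 0.56 in centred log2 CPM. This was the third smallest of the 45 pairs of the 10 genes, which ran up to 4.43 for H2-Aa and Gpnmb. The genes outside the 10 closest to Cd74 by the same measure were Bdh2, Tfpi2, Gm11127, Gpx3 and Gm6652 (0.470 to 0.536), and those closest to H2-Aa were Gm15883, Slc10a5, Gm44386, Mep1b and Ceacam2 (0.353 to 0.472), out of 16475 genes compared.

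Most other genes of MHC class II presentation also fell. Of 10 tested, 9 fell and 1 rose on day 14 against day 0 (32.1% and 37.4% of all genes tested), with a median log2 fold change of -2.81. H2-Eb1, a class II beta chain, had 0.257±0.166 CPM on day 14, against 21.9±10.9 CPM on day 0 (SD, n = 3 each). H2-Ab1, the partner chain of H2-Aa, had 1.61±0.585 CPM on day 14, against 50.4±24.8 CPM on day 0, and H2-DMb1, a chain of the peptide loader, had 4.09±0.383 CPM on day 14, against 29.9±1.12 CPM on day 0. The gene that rose was Rfx5, a subunit of the factor that binds class II promoters, at 21.9±1.69 CPM on day 14, against 15.9±0.745 CPM on day 0, and with DESeq2 size factors none of the 10 rose. Ciita, the class II transactivator, named after its values were seen, had at most 0.113±0.0600 CPM on any culture day, against 1.35±0.834 CPM on day 0.

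H2-Ab1 had counts in each library where H2-Aa had none. It had 25, 13 and 14 counts on day 4, 149, 79 and 21 on day 7 and 43, 34 and 70 on day 14, so that A and B of day 7 were above each library of day 4 and C was not. Of the ligand and co-receptors through which CD74 is known to signal, Mif had 224±11.1 CPM on day 14, against 330±13.6 CPM on day 0. Cd44 had 78.3±9.28 CPM on day 14, against 1.27±0.483 CPM on day 0, and Cxcr4 had 0.143±0.0742 CPM on day 14, against 1.41±0.526 CPM on day 0. On day 14 against day 0, Cd44 rose and Mif and Cxcr4 fell (adjusted p = 3.86e-08, 0.0145 and 8.46e-05, edgeR, BH), and with library sizes alone Mif had a log2 fold change of 0.0032 and was not called.

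The 3 C1q genes lie close together on the minus strand of chromosome 4, as C1qb (ENSMUSG00000036905, 136880129 to 136886187), C1qc (ENSMUSG00000036896, 136889804 to 136893065) and C1qa (ENSMUSG00000036887, 136895917 to 136898803). They are shown with the bases before their starts because they moved together. RefSeq (GRCm38.p6) gives the following 250 bases before the start of C1qb (chr4:136886201-136886450) and of C1qc (chr4:136892915-136893164), both on the minus strand, and C1qa is named only. Capitals mark GAGGAA, the core letters bound by the macrophage factor PU.1, and CACATG, an E-box, on either strand.
C1qb: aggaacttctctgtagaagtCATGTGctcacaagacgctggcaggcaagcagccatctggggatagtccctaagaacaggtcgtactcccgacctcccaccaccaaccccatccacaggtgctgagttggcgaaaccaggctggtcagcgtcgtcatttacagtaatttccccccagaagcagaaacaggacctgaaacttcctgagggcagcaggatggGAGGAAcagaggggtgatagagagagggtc
C1qc: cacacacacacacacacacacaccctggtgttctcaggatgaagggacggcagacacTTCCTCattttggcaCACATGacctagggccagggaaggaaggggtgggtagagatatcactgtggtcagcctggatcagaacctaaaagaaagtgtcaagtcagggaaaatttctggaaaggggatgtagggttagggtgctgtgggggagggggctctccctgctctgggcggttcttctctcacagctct
Both windows hold both motifs. GAGGAA begins 30 bases before the start of C1qb and 193 before that of C1qc, and CACATG 230 and 178 bases before. Of 32851 promoter windows of the same length, 23.3% hold GAGGAA and 12.3% hold CACATG. No overlap between these motifs was found in either window.

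The C1q genes had lost most of their counts by day 1. C1qb had 0.0354, 0.0856 and 0.218 CPM on day 1 (1, 2 and 6 counts), against 5.35, 3.49 and 11.8 CPM on day 0 (113, 97 and 229 counts). C1qa had 3, 0 and 3 counts on day 1, against 68, 46 and 114 on day 0, and C1qc had 5, 0 and 4 counts on day 1, against 64, 59 and 128 on day 0. The log2 fold changes on day 1 against day 0 were -5.48±0.86 for C1qa, -5.86±0.87 for C1qb and -5.06±0.91 for C1qc (SE, adjusted p = 3.35e-05, 1.89e-05 and 0.00012, edgeR, BH). No library of day 1 reached the lowest of day 0 for any of the 3 genes.

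After day 1 the C1q genes stayed low without reaching 0. C1qb had 0.414, 0.933 and 1.72 CPM on day 2, higher than on day 1 in each library, with a log2 fold change of 3.12±0.91 (adjusted p = 0.015, edgeR, BH). That day 2 rise made 1 of the 10 genes higher and 3 lower than on day 1, where 17.0% and 17.5% of all genes were called. It was not called without replicate A or B of day 1 or replicate C of day 2 (adjusted p = 0.0664, 0.0532 and 0.0738), nor in limma on log2(TPM + 1) without filter (adjusted p = 0.0758). On day 14 C1qa was at 0.0932, 0.107 and 0.358 CPM, C1qb at 0.0932, 0.427 and 0.489 CPM and C1qc at 0.0311, 0.249 and 0.326 CPM, in each case highest in replicate C. The log2 fold changes on day 14 against day 0 lay between -4.34±0.75 for C1qb and -4.22±0.75 for C1qa (adjusted p at most 0.000253 for the 3 genes).

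Replicate C of day 7 held more C1q RNA than A and B. C1qa had 0.210, 0.0708 and 0.563 CPM there, C1qb 0.511, 0.213 and 1.65 CPM, and C1qc 0.150, 0.0354 and 0.675 CPM in A, B and C. Without C the day 7 means were 0.141 CPM for C1qa, 0.362 CPM for C1qb and 0.0928 CPM for C1qc, against 0.281, 0.791 and 0.287 CPM with it. Over the 18 libraries C1qb and C1qc were the closest pair of the 10 genes (mean absolute difference 0.48 in centred log2 CPM), with C1qa and C1qc next (0.53). The genes outside the 10 closest to C1qa were Col15a1, Prox1, Ccr2, Mgl2 and Rassf2 (0.546 to 0.590). Those closest to C1qb were Cd248, Rassf2, B3galt2, Dock2 and Fcgr3 (0.641 to 0.737), and those closest to C1qc were Dock2, Rac2, Fcgr3, G0s2 and Aplnr (0.627 to 0.708). Ccr2, the chemokine receptor of monocytes, is the 1 of these names that is on the macrophage list used here. That list holds 26 genes, so a name that is not on it can still be a leukocyte gene.

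C1q works in a complex with the proteases C1r and C1s. C1ra had 5.86±1.40 CPM on day 14, against 15.9±2.11 CPM on day 0 (SD, n = 3 each, adjusted p = 0.000188, edgeR, BH). C1s1 had 6.52±1.36 CPM on day 14, against 7.19±1.07 CPM on day 0, and Serping1, the C1 inhibitor, had 4.61±0.555 CPM on day 14, against 5.21±0.155 CPM on day 0, and neither was called. All 3 were called lower on day 4 against day 0, as were 36.8% of all genes tested, and C1s1 had 2.52±0.383 CPM on day 4.

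Ptprc and Csf1r fell early and were back by day 14. Ptprc (ENSMUSG00000026395, chromosome 1, 138062861 to 138175708, minus strand) had 3.83, 3.42 and 5.85 CPM on day 0, 0.920, 1.11 and 1.49 CPM on day 1, and 1.2, 1.33 and 1.80 CPM on day 4. It had 7.06, 8.50 and 2.51 CPM on day 7 and 4.63, 8.12 and 6.88 CPM on day 14. The day 1 libraries all lay under those of day 0, while those of days 7 and 14 overlapped them. The log2 fold change of Ptprc was -1.89±0.42 on day 1 and -1.59±0.41 on day 4 against day 0 (SE, adjusted p = 0.000769 and 0.00215, edgeR, BH). It was 2.06±0.40 on day 7 against day 4 (adjusted p = 0.00106), with all 3 libraries higher, and 2.43 without replicate C of day 7.

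On day 14 against day 0, Ptprc had a log2 fold change of 0.59±0.38 (adjusted p = 0.182, edgeR, BH). This value depends on the scaling. With library sizes alone it was 1.14 (adjusted p = 0.0137), and in limma on log2(TPM + 1) it was 0.83 (adjusted p = 0.00326), where the median of all genes shifted by 0.56 and 0.77. Without replicate C of day 7, the mean of day 7 was 7.78 CPM and its log2 fold change against day 0 was 0.85 (adjusted p = 0.0201), against 0.47±0.38 with it (adjusted p = 0.282). The fall of Ptprc on day 1 was not called in limma on log2(TPM + 1) without filter (adjusted p = 0.0717). Those on days 2 and 4 were not called in limma on log2(TPM + 1) (adjusted p = 0.232 and 0.128), and that of day 2 not with library sizes alone (adjusted p = 0.0811).

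Csf1r (ENSMUSG00000024621, chromosome 18, 61100598 to 61132149, plus strand) reached its low point later. It had 11.4, 8.61 and 15.9 CPM on day 0, 6.72, 7.27 and 6.74 CPM on day 1, 3.53, 2.80 and 2.96 CPM on day 2, and 3.26, 3.54 and 3.03 CPM on day 4. On day 7 it had 13, 9.74 and 3.00 CPM, so that replicate C had a day 4 level while A and B were near day 0. On day 14 it had 22.8, 15.9 and 14.5 CPM. The log2 fold change on day 1 against day 0 was -0.79±0.36 (adjusted p = 0.0637, edgeR, BH), although no library overlapped. This fall was called with DESeq2 size factors, in the DESeq2 Wald test, with the libraries of these days only, and without replicate B of day 0 or replicate A or C of day 7 (adjusted p = 0.0438, 0.0303, 0.039, 0.0399, 0.0417 and 0.00335). The log2 fold change was -1.94±0.38 on day 2 against day 0 (adjusted p = 0.000233, edgeR, BH). On day 7 against day 0 it was -0.47±0.36 (adjusted p = 0.255), -0.058 without replicate C of day 7 (adjusted p = 0.837) and -0.90 without replicate A (adjusted p = 0.0427). On day 7 against day 4 it was 1.39±0.37 (adjusted p = 0.0082) and 1.80 without replicate C of day 7. That rise was not called without replicate A of day 7, with the libraries of these days only or in limma without filter (adjusted p = 0.0654, 0.0894 and 0.0892).

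On day 14 against day 0 the log2 fold change of Csf1r was 0.57±0.36 (adjusted p = 0.165, edgeR, BH). It was called higher with library sizes alone (1.13, adjusted p = 0.00865), in limma on log2(TPM + 1) (1.32, adjusted p = 0.00228) and without replicate C of day 7 (0.58, adjusted p = 0.0186). The TPM of Csf1r averaged 9.65±2.40 on day 14, against 3.32±1.17 on day 0 (SD, n = 3 each). The gene overlaps Hmgxb3 on the opposite strand, which had 74.0±1.95 CPM on day 14, against 40.4±0.363 CPM on day 0, and whether counting used strand is not given in the sources used here. The part of Hmgxb3 reads in the Csf1r counts was not tested.

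The ligands of CSF1R were far above their day 0 levels throughout culture. Csf1, the macrophage growth factor, had 162±22.3 CPM on day 14, against 6.33±0.404 CPM on day 0 (SD, n = 3 each), with a log2 fold change of 4.68±0.15 (SE). Il34, the second ligand, had 21.3±2.82 CPM on day 14, against 3.38±0.487 CPM on day 0, with a log2 fold change of 2.66±0.25 (adjusted p at most 7.55e-08 for both, edgeR, BH). Csf1 was already at 197±29.5 CPM on day 1, when Csf1r itself was lower than on day 0 in each library.

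Other leukocyte genes did not come back with Ptprc and Csf1r. Laptm5, Tyrobp, Adgre1, Cx3cr1 and Ccr2, all chosen after their values were seen, are surface or signalling genes of leukocytes and macrophages. Laptm5 had 0.0621, 0.107 and 0.261 CPM on day 14, against 4.83, 4.00 and 9.29 CPM on day 0. Tyrobp had 2, 2 and 0 counts on day 14, against 25, 33 and 62 on day 0. Adgre1, which encodes F4/80, had 2, 1 and 3 counts on day 14, against 60, 32 and 62 on day 0. Cx3cr1, too low to be tested, had 0, 1 and 2 counts on day 14, against 24, 13 and 49 on day 0, and Ccr2 had none in any library from day 1 on. Ptprc had 149, 228 and 211 counts in those day 14 libraries and Csf1r had 733, 446 and 444.

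Ptprc and Csf1r also stayed closer to each other than to the other 8 genes, at 0.60 in mean absolute difference of centred log2 CPM. The genes outside the 10 with the closest course were Spink8, Vps37d, Gng7, Lrfn3 and Sox12 for Ptprc (0.253 to 0.307) and Zkscan4, 1700029J07Rik, Foxred2, Sh3tc2 and Anks6 for Csf1r (0.276 to 0.320). None of these 10 names is on the lists of macrophage, lymphocyte, dendritic cell or neutrophil markers used here. Those lists are short beside the 16475 genes compared, so a match was unlikely in any case and no conclusion is drawn. The TPM of Csf1r over that of C1qb was 0.330 to 0.561 within the libraries of day 0, 6.94 to 50.8 on day 1 and 0.471 to 1.73 on day 2. C1qb had 1, 2 and 6 counts on day 1 and 3 in replicate A of day 14, so the highest ratios rest on few counts. The ratio was 1.18 to 1.59 on day 4 and 8 to 65.3 on day 14. On day 7 it was 6.30 in A and 11.2 in B and 0.334 in C, which is the day 0 range.

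Lyz2 (ENSMUSG00000069516, chromosome 10, 117277331 to 117282321, minus strand) followed a course of its own. It had 9.75, 8.39 and 20.8 CPM on day 0, 1.34, 2.23 and 2.50 CPM on day 1, 2.39, 6.05 and 6.97 CPM on day 2 and 4.90, 6.21 and 8.45 CPM on day 4. On day 7 it had 4.33, 4.82 and 46.7 CPM and on day 14 it had 2.02, 2.10 and 8.24 CPM. Replicate C of day 7 was more than any other library of the series, and C was the highest library on all 6 days. Lyz1, the near-identical neighbouring lysozyme gene, had 0 to 3 counts per library.

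Lyz2 fell on day 1 against day 0, with a log2 fold change of -2.68±0.85 (SE, adjusted p = 0.0103, edgeR, BH, and 0.0623 in limma on log2(TPM + 1) without filter). On days 2, 4 and 14 it was -1.34±0.79, -0.99±0.78 and -1.65±0.80, and none of these was called (adjusted p = 0.136, 0.259 and 0.0768). On day 7 against day 0 it was 0.52±0.76 with all 3 libraries (adjusted p = 0.559) and -1.49 without replicate C (adjusted p = 0.0313). Without that library Lyz2 was also called lower on day 2 (-1.33, adjusted p = 0.0243) and day 14 (-1.64, adjusted p = 0.00839) against day 0. So it was with the replicate block (-1.31 and -1.85, adjusted p = 0.0316 and 0.00565). With the libraries of the days compared only, it was called lower on days 2, 4 and 14 (adjusted p = 0.0178, 0.0194 and 0.0146), and without replicate C of day 14 it was called lower on day 14 (-2.57, adjusted p = 0.022). The day 7 mean was 18.6±24.3 CPM (SD, n = 3), or 4.57 CPM without C.

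Replicate C of day 7 was high in Lyz2 where it was low in Ptprc, Csf1r and Cd68. Within the other macrophage and myeloid markers, 17 of the 24 with counts on day 7 were highest in C, against 42.6% of all genes tested. Irf8, a myeloid transcription factor, had 0.962, 0.319 and 5.06 CPM in A, B and C of day 7, and Laptm5 had 0.120, 0.283 and 1.69 CPM. Genes of other cells were high in C too, since 7 of 8 proximal tubule and 6 of 8 endothelial markers peaked there. The part of leukocyte content in the Lyz2 level of that library was not tested. The genes outside the 10 closest to Lyz2 over the 18 libraries were Fcgr3, Tm6sf1, 4933404O12Rik, Mid1 and Nt5dc2 (0.552 to 0.629).

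Cd68 rose at once and then moved up and down. It is encoded on chromosome 11 (ENSMUSG00000018774, 69664213 to 69666153, minus strand) and had 1.47, 0.864 and 3.49 CPM on day 0, 40.9, 36.2 and 38.1 CPM on day 1 and 21.7, 10.4 and 18.2 CPM on day 2. The level was 5.0, 3.41 and 5.14 CPM on day 4, 38.3, 23.6 and 7.84 CPM on day 7 and 11.2, 7.98 and 10.1 CPM on day 14. Day 1 lay far above day 0 without overlap, and day 4 fell back so far that B of day 4 was under C of day 0. The log2 fold change against day 0 was 4.34±0.54 on day 1 and 2.36±0.52 on day 14 (SE, adjusted p = 2.78e-06 and 0.000741, edgeR, BH). On day 4 it was 1.26±0.52 (adjusted p = 0.0396), which was not called without replicate A or B of day 0 or replicate A or C of day 4 (adjusted p = 0.115, 0.166, 0.084 and 0.089).

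Between culture days, Cd68 had a log2 fold change of -1.19±0.45 on day 2 against day 1 (SE, adjusted p = 0.0528, edgeR, BH), not called although no library overlapped. That fall was called in 9 of 27 alternatives, among them edgeR without replicate C of day 7 (adjusted p = 0.00526). The log2 fold change of Cd68 was -1.89±0.48 on day 4 against day 2 (adjusted p = 0.00475, edgeR, BH) and 2.36±0.48 on day 7 against day 4 (adjusted p = 0.0014). Without replicate C of day 7 the change on day 7 against day 4 was 2.78, and the day 7 mean of Cd68 was 30.9 CPM, against 23.2±15.2 CPM with it (SD, n = 3). On day 4 against day 2, 4 of the 10 genes fell and none rose at that threshold (22.1% and 19.4% of all genes tested), the fallers being Cd74, H2-Aa, Cd68 and Gpnmb. On day 7 against day 4, 4 rose and none fell (22.0% and 15.9% of all genes), namely Ptprc, Csf1r, Cd68 and Gpnmb, and each of these 4 was called without replicate C of day 7 as well. On day 14 against day 7 none of the 10 was called by edgeR, where 5.07% of all genes rose and 7.46% fell. At an unadjusted p under 0.05 there were 4 of the 10, and 5009 of the 18754 genes tested. The DESeq2 Wald test called Csf1r higher and Cd68 lower (adjusted p = 0.0339 and 0.0472). In edgeR, Cd68 was called lower without replicate C of day 7 (-1.67, adjusted p = 0.0036), Lyz2 lower with the replicate block (-1.86, adjusted p = 0.0326) and Csf1r higher with library sizes alone (1.13, adjusted p = 0.0447). With all libraries and TMM scaling, Csf1r had a log2 fold change of 1.04±0.36 (adjusted p = 0.0694, edgeR, BH) and Gpnmb of 0.61±0.24 (adjusted p = 0.103, and 0.0046 without replicate B of day 7).

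Gpnmb was close to absent at isolation and the most abundant of the 10 genes at the end. It lies on chromosome 6 (ENSMUSG00000029816, 49036546 to 49070929, plus strand). It had 1, 1 and 5 counts on day 0, which is 0.0473, 0.0360 and 0.257 CPM, and 33.0, 26.1 and 27.2 CPM on day 1. The level was 34.6, 24.5 and 32.7 CPM on day 2, 15.8, 13.7 and 18.1 CPM on day 4, 49.0, 82.9 and 37.9 CPM on day 7 and 81.5, 91.1 and 87.4 CPM on day 14. All culture libraries lay above all day 0 libraries. The log2 fold change against day 0 was 8.07±0.44 on day 1 and 9.66±0.43 on day 14 (SE, adjusted p = 2.37e-10 and 1.87e-11, edgeR, BH), and -0.95±0.24 on day 4 against day 2 (adjusted p = 0.00529).

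Per transcript length, Gpnmb stood at 43.4±2.44 TPM on day 14, followed by Cd68 at 17.3±3.01, Csf1r at 9.65±2.40, Lyz2 at 6.56±5.76 and Ptprc at 2.46±0.639 TPM (SD, n = 3 each). The other 5 genes each averaged at most 0.68±0.431 TPM, and over the libraries Gpnmb, Cd68 and Csf1r did not overlap, while Lyz2 overlapped Csf1r. On day 0 the order was headed by Cd74 at 110±57.1 TPM and H2-Aa at 26.6±15.9 TPM, and Gpnmb was last at 0.0433±0.0404 TPM. The middle of the day 0 order, with Lyz2 at 11.6±6.04, C1qb at 7.82±4.92, C1qa at 4.33±2.56, C1qc at 3.90±2.34 and Csf1r at 3.32±1.17 TPM, was within the spread of its neighbours. Cd68 had 2.07±1.47 TPM and Ptprc 0.930±0.272 TPM on that day.

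The bases before the start of Cd68 and Gpnmb are shown because both genes rose and yet differed in course. RefSeq (GRCm38.p6) gives 250 bases for Cd68 (chr11:69666171-69666420, minus strand), Gpnmb (chr6:49036268-49036517, plus strand) and, as a gene that fell, H2-Aa (chr17:34287824-34288073, minus strand). Capitals mark TGANTCA, the letters of an AP-1 site, ATTGG, the inverted CCAAT box of class II promoters, and GAGGAA, on either strand.
Cd68: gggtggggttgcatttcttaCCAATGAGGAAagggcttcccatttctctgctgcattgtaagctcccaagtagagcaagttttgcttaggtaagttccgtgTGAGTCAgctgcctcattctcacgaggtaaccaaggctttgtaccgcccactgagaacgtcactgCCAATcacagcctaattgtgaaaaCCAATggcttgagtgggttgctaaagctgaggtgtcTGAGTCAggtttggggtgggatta
Gpnmb: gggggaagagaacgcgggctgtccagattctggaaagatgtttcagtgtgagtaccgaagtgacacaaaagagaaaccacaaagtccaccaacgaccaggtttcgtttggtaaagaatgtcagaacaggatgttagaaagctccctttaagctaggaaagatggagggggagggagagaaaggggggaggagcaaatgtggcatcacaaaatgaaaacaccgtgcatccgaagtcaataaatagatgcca
H2-Aa: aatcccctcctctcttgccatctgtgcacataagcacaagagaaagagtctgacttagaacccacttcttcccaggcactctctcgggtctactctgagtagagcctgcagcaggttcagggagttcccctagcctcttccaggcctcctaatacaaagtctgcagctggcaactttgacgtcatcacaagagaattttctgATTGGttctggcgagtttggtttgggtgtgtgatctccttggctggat
The Cd68 window holds TGANTCA 149 and 24 bases before the start, ATTGG 230, 84 and 60 bases before, and GAGGAA 225 bases before, directly after the first ATTGG match and with no base shared. H2-Aa has ATTGG 48 bases before its start, and the Gpnmb window has none of the motifs searched. CACGTG, the letters bound by the lysosomal regulators TFEB and TFE3, was in none of the windows of the 7 genes searched, which leave out Cd74, Csf1r and C1qa. Of 32851 windows, 6.75% hold TGANTCA, 33.8% ATTGG and 6.02% CACGTG. Ptprc has GAGGAA 158 bases before the first of its 2 starts, and Lyz2 has none of the motifs.

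Within a library, the rise of Cd68 was not matched by Ptprc. The TPM of Cd68 was 1.12 to 2.98 times that of Ptprc on day 0, 126 to 213 times on day 1, 28.3 to 89.1 times on day 2 and 11.8 to 21.7 times on day 4. On day 7 it was 12.8 to 25.1 times and on day 14 it was 4.64 to 11.1 times, still above each day 0 library. Gpnmb had 0.0118 to 0.0244 times the TPM of Cd68 on day 0, 0.206 to 0.239 times on day 1, 0.837 to 1.2 times on day 4 and 2.10 to 3.27 times on day 14. Cd68 and Gpnmb were 1.70 apart in mean absolute difference of centred log2 CPM. The genes outside the 10 nearest to Cd68 were Adm, Gm16754, Ankrd37, Ifi204 and Zswim4 (0.502 to 0.608), and those nearest to Gpnmb were Trib3, Ivl, Ahnak2, Krt19 and Runx1 (0.591 to 0.713).

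**Figure D3:**
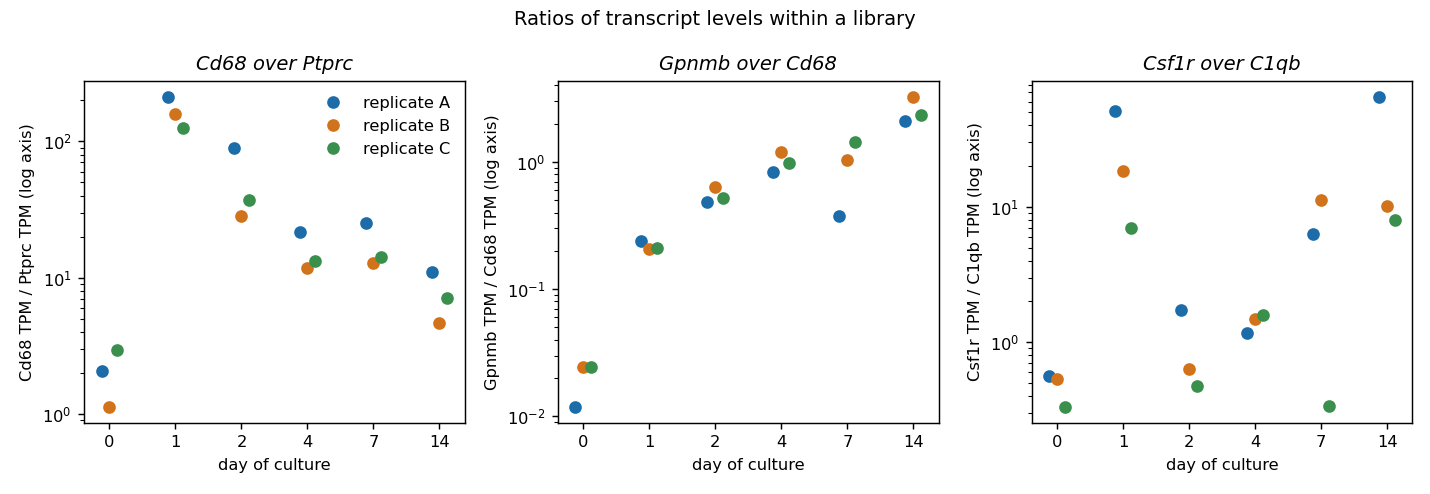
Ratio of TPM within each library by day of culture, on log axes, for Cd68 over Ptprc, Gpnmb over Cd68 and Csf1r over C1qb. The first rises to 126 to 213 on day 1 and declines, the second climbs to 2.10 to 3.27 on day 14, and in the third replicate C of day 7 lies at 0.334, apart from A and B.

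Lysosomal genes other than Cd68 and Gpnmb moved in both directions, with a larger share falling than among all genes tested. Of 31 tested, 10 rose and 18 fell on day 14 against day 0 (37.4% and 32.1% of all genes tested). Their median log2 fold change was -0.43, beside 0.16 for all genes tested. With library sizes alone 14 rose and 13 fell, where 10373 and 4047 of the 18754 genes tested did. The median was then 0.13, beside 0.72 for all genes tested. Lgals3, a galectin recruited to damaged lysosomes, had 319±22.5 CPM on day 14, against 57.1±14.0 CPM on day 0 (SD, n = 3 each). Sqstm1, an autophagy receptor, had 2031±94.7 CPM on day 14, against 780±34.7 CPM on day 0. Among those that fell, Ctsz, a cathepsin, had 64.7±0.437 CPM on day 14, against 261±12.4 CPM on day 0, Atp6v0d2, a proton pump subunit, had 1.22±0.243 CPM on day 14, against 79.8±24.1 CPM on day 0, and Lipa, the acid lipase, had 30.2±3.92 CPM on day 14, against 740±172 CPM on day 0. The summed level of the 31 genes was 13850 to 14156 CPM on day 14, against 15933 to 16888 CPM on day 0, and on day 4, when Cd68 and Gpnmb were at their lowest in culture, it was 9910 to 10497 CPM.

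Receptors for the uptake of dead cells and lipids also moved in both directions. Of 10 tested, 6 rose and 3 fell on day 14 against day 0, where 37.4% of all genes tested rose and 32.1% fell. Axl had 220±30.5 CPM on day 14, against 18.2±2.54 CPM on day 0, Tyro3 had 19.7±1.73 CPM on day 14, against 2.60±0.974 CPM on day 0, and Havcr1, the injury molecule of tubule cells that binds dead cells, had 120±31.2 CPM on day 14, against 0.161±0.106 CPM on day 0 (SD, n = 3 each). Mertk, the receptor of this family best known in macrophages, fell to 2.99±0.548 CPM on day 14, against 69.3±12.6 CPM on day 0, and Cd36 to 0.189±0.0562 CPM on day 14, against 22.0±4.47 CPM on day 0.

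Most of the wider macrophage list was lower on day 14 than on day 0, as the C1q genes were. Of 20 tested of 26, 14 fell and 2 rose on day 14 against day 0 (32.1% and 37.4% of all genes tested), with a median log2 fold change of -2.48. With library sizes alone 13 fell and 3 rose, where 4047 and 10373 of the 18754 genes tested did. On day 1 against day 0, 12 of the 20 fell and 1 rose (37.1% and 33.1% of all genes tested). Coro1a, an actin regulator of leukocytes, had 0.217±0.0650 CPM on day 14, against 3.75±2.28 CPM on day 0, Fcer1g, an Fc receptor chain, had 0.155±0.0277 CPM on day 14, against 2.49±1.17 CPM on day 0, and Irf8 had 0.530±0.237 CPM on day 14, against 23.1±3.50 CPM on day 0 (SD, n = 3 each). Those that rose were Cd14, the endotoxin co-receptor, at 14.4±0.991 CPM on day 14, against 3.55±0.650 CPM on day 0, and Spi1, which encodes PU.1, at 2.39±0.0633 CPM on day 14, against 1.07±0.227 CPM on day 0. The summed level of the 26 genes was 37.9 to 39.4 CPM on day 14, against 109 to 142 CPM on day 0. On day 1, when most C1q counts were gone, that sum was still 94.2 to 111 CPM, although the median log2 fold change of the 20 tested was -1.89. Part of the sum is Cd14, which had 16.9, 20.9 and 15.1 CPM on day 1, against 2.98, 3.42 and 4.26 CPM on day 0.

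**Figure D4:**
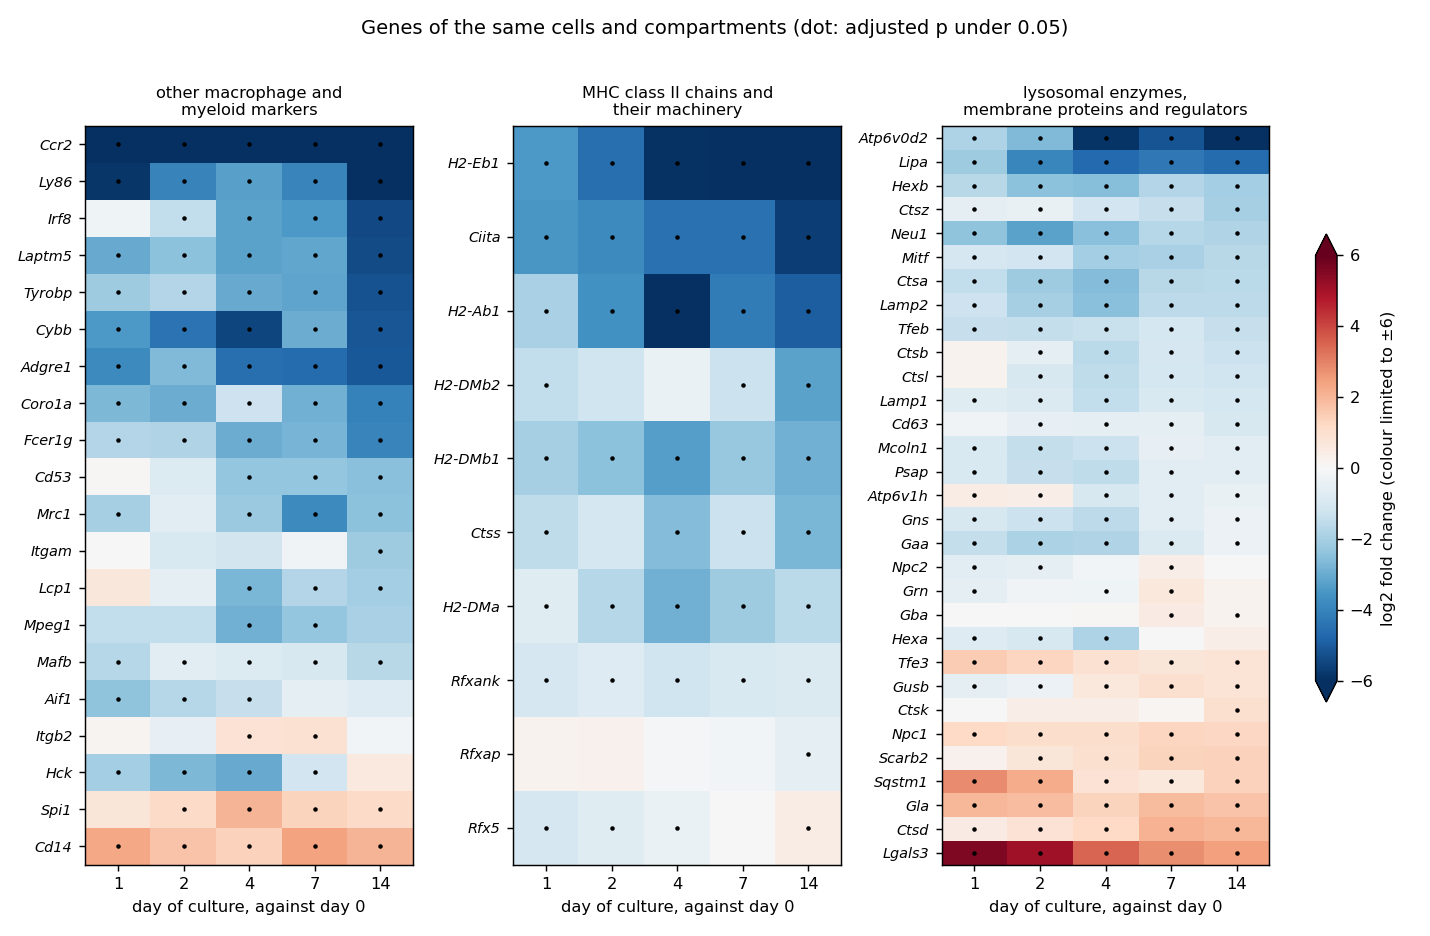
Log2 fold change against day 0 (colour, limited to ±6) of the tested genes of 3 lists by day of culture, with a dot where the adjusted p was under 0.05. Of the macrophage markers 14 are lower and 2 higher on day 14, of the MHC class II genes 9 and 1, and of the lysosomal genes 18 and 10 (13 and 14 with library sizes alone).

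Markers of other leukocytes were scarce at isolation and, for lymphocytes, scarcer in culture. The summed level of 14 lymphocyte markers was 0.107 to 0.391 CPM on day 14, against 4.79 to 9.03 CPM on day 0. The 3 genes tested all fell, where 32.1% of all genes tested did. Of the 9 dendritic cell markers 2 were tested, and Batf3 fell to 0.176±0.0740 CPM on day 14, against 0.956±0.456 CPM on day 0. The other, Zbtb46, was not called on day 14 against day 0. With library sizes alone its log2 fold change was 0.11 (adjusted p = 0.712, edgeR, BH). Neutrophil markers summed to 0.435 to 1.03 CPM on day 14, against 0.565 to 0.900 CPM on day 0. Ly6g, chosen like S100a9 after its values were seen, had 3.01±0.332 CPM on day 4 and no count on day 0, while S100a9 had none in any library from day 1 on. All 8 endothelial markers fell on day 14 against day 0, beside the same 32.1% of all genes tested. With library sizes alone 7 fell, where 4047 of the 18754 genes tested did. Their summed level was 15.5 to 18.5 CPM on day 14, against 191 to 221 CPM on day 0. Of the 7 fibroblast and pericyte markers tested, 3 rose and 4 fell (37.4% and 32.1% of all genes tested). Their list summed to 138 to 189 CPM on day 14, against 47.9 to 58.7 CPM on day 0.

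The libraries of day 0 differed in macrophage RNA among themselves. Each of the 10 genes was highest in replicate C, next in A and lowest in B, with a ratio of C to B between 1.71 for Ptprc and 7.13 for Gpnmb, which rests on few counts. Among all genes with counts there, 31.8% were highest in C. Among the other macrophage and myeloid markers 20 of 25 were, and among the lymphocyte markers 9 of 14. For the proximal tubule markers it was 1 of 8 and for the endothelial markers 2 of 8. In culture the same order did not hold for all genes, since Csf1r was highest in C on day 0 alone, while C1qa, Cd74 and Lyz2 were highest in C on each of the 6 days.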

How the data were processed

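RNA of 18 libraries (3 replicates on each of 6 days) was analysed. The authors deposited 2 tables, estimated counts (whole numbers) and TPM per gene. Per the submitters' processing notes, cutadapt 2.3, FastQC 0.11.8, STAR 2.7.8a, RSEM 1.3.3 and GRCm38 were used. The annotation release and strand setting were not given in the sources at hand, so overlapping genes and near copies can share reads. Of 55426 entries, 5 without gene ID and with 0 counts were left out. A count of 0 stood beside a TPM above 0 in 878 cells.

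CPM used TMM-scaled library sizes, and a prior count of 2 was added for log2 CPM. edgeR's filterByExpr left 18754 genes. Its quasi-likelihood test was run in 1 model of the 6 day means, with BH adjustment over all genes. Standard errors are the fold change divided by the root of F. The test was checked on simulated data. TPM ratios were taken within libraries. Folds against a day with 0 counts use a floor of 3 counts over its libraries, and intervals are exact at 95%, for counting error only. Positions are from GENCODE vM21 and promoters from RefSeq. Likeness is the mean absolute difference of centred log2 CPM over 18 libraries, among genes reaching a day mean of 1 CPM. All 160 list genes were found, and 119 were tested.

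Named are the 10 genes and, from each list, at most 3 genes with the smallest adjusted p on day 14 against day 0 in the commoner direction, at most 2 in the opposite one, and every gene of lists of up to 3. The 5 most alike genes are named as well, and Laptm5, Tyrobp, Adgre1, Cx3cr1, Ccr2, Ciita, Ly6g and S100a9 were named after their values were seen. The genes and lists were chosen with earlier results of these data known.

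As alternatives, DESeq2 size factors, library sizes alone, no filter, the replicate block, a fit restricted to the days compared, the DESeq2 Wald test, limma on log2 TPM with pseudocounts of 1 and 0.1 and with no filter, and each library left out in turn were tried. Software was R 4.3.3 with edgeR 4.0.16, limma 3.58.1 and DESeq2 1.42.0, and for figures Python 3.11.15 with matplotlib 3.10.9.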

Additional observations from a re-analysis of the deposited data

How the results depend on the processing

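Over 27 alternatives, 2320 of 2421 fold changes of the 10 genes kept direction and side of the threshold, 29 lost a call, 53 gained one and 19 changed sign. Of 45 same-letter correlations of deviations from the day means, 8 were over 0.1 (median 0.0247, highest 0.424 for C on days 1 and 2). All 3 letters were over 0.1 only between days 2 and 4 (0.203, 0.16 and 0.293), where the block gave 7900 calls over all genes, against 7771 without it, and changed no call of the 10 genes. With the replicate block, the calls over all genes on day 14 against day 7 were 2254, against 2349 without it, and Lyz2 was called lower on day 14 against day 0 (adjusted p = 0.00565, edgeR). The count of the 10 genes higher on day 14 against day 0 was 2, where 7007 of the 18754 genes tested rose. It was 4 with library sizes alone, where 10373 of the 18754 rose. It was also 4 in each of the 3 limma fits on TPM, and 2 to 3 with a library left out. On day 4 against day 0 it was 2 (7145 of all genes tested), and 1 to 2 with a library left out. On day 2 against day 1 it was 1 (3186 of all genes tested). It was 2 with the libraries of these days only, 0 in limma without filter, and 0 to 1 with a library left out. On day 14 against day 7 the count higher was 0 (950 of all genes tested), and 1 with library sizes alone (1554 of all genes tested). It was 1 in the DESeq2 Wald test and in limma on log2(TPM + 0.1). It was 2 in limma on log2(TPM + 1) with and without filter, and 0 to 1 with a library left out. The count lower there was 0 (1399 of all genes tested), 1 with the replicate block and in the DESeq2 Wald test, and 0 to 1 with a library left out. Where no number for all genes stands beside a count, calls over all genes were not counted by direction. Those counts have no background. The cause of these differences between fits was not tested.

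Changes of sign came in values not called in edgeR with all libraries. Csf1r on day 7 against day 0 was -0.47, 0.0039 with library sizes alone and 0.022 in limma on log2(TPM + 1) with and without filter. With a library left out, Lyz2 on day 7 against day 0 ran from -1.49 to 1.03 and on day 7 against day 4 from -0.51 to 1.98. Gpnmb on day 2 against day 1 ran from -0.0096 to 0.23. On day 4 against day 2, C1qa ran from -0.36 to 1.27 and C1qc from -0.23 to 0.67. On day 7 against day 4, C1qa ran from -0.68 to 1.48, C1qb from -0.51 to 1.01 and Cd74 from -0.098 to 0.57. On day 14 against day 7, Ptprc ran from -0.25 to 0.44, C1qa from -1.45 to 0.35 and C1qc from -1.04 to 1.01. Few counts limit C1qa, with 2 to 15 per library after day 1, and H2-Aa, with at most 1 after day 2.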
